A study of Mus musculus with 11 samples.

Results

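The 10 genes studied here encode subunits of the SWI/SNF chromatin remodelling complex and were followed in RNA-seq counts from mouse forelimb buds with reduced Gmnn. They were Smarca4, Smarca2, Smarcb1, Smarcc1, Smarcc2, Smarcd1, Smarcd3, Smarce1, Arid1a and Arid1b, chosen by name for their place in the complex and not by their values. All 10 were found among the 47517 gene names of the count table, and all 10 had enough reads to be tested. There were 11 libraries from embryos at E10.5 on a C57BL/6 background. The 5 controls were Gmnn +/f; Prx-Cre and the 6 mutants Gmnn f/f; Prx-Cre, so that controls also carried the Cre transgene and 1 floxed allele. Prx-Cre expresses Cre recombinase in limb mesenchyme, while the whole bud also holds ectoderm, blood and vessel cells. The embryos came from 4 litters. Controls 1 and 2 shared litter A with mutants 1 and 2. Control 3 was a littermate of mutant 6 (litter B), control 4 of mutant 5 (litter C), and control 5 of mutants 3 and 4 (litter D).

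SWI/SNF (BAF) complexes use the energy of ATP to slide or evict nucleosomes and so open DNA to transcription factors. Each complex carries 1 ATPase, Brg1 (Smarca4) or Brm (Smarca2). In the canonical BAF form it sits on a core of Smarcb1, Smarcc, Smarcd and Smarce1 proteins with Arid1a or Arid1b. Geminin, the product of Gmnn, binds the licensing factor Cdt1, and it also binds Brg1. The comparison asks whether the messages for the complex differ when Gmnn is reduced.

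Of the 10 genes, 9 had a promoter in the RefSeq table for GRCm38.p6, with 10 windows in all; Smarce1 had none. In the 250 bases before the start site, these windows held 18 to 40 CG pairs (the letters CG, which read the same on both strands), against a median of 6 over 32851 windows of the same length. A pair of windows is shown, with CG in capitals, for the reasons that follow. Smarca4 had the lowest coefficient of variation of the members, and Arid1a is 1 of the pair of members most alike, as described below. The Smarca4 window (chr9:21615919-21616168, plus strand) had 25 CG pairs, a count reached by 10.7% of all windows. Arid1a has 2 windows. The one shown, at the outer start (chr4:133756770-133757019, minus strand), had 18, a count reached by 21.7%, and the other (chr4:133753986-133754235) had 33, reached by 4.03%.
Smarca4: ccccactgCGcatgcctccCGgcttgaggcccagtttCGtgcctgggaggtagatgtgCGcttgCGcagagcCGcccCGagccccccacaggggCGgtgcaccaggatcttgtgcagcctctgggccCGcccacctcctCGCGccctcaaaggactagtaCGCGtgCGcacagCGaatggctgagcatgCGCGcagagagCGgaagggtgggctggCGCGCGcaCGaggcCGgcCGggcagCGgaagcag
Arid1a: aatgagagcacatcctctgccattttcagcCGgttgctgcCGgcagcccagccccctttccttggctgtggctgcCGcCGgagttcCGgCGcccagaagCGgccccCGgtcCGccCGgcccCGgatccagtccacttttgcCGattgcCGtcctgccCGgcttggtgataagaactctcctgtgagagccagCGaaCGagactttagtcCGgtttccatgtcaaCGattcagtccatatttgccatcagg

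Total counts were 14721181 to 19733288 per library. Gmnn, the targeted gene, was 139.3 to 238.9 CPM (read counts relative to library size, with TMM scaling factors) in controls and 99.51 to 137.7 CPM in mutants, and every mutant lay below every control. The difference was -0.67 on the log2 scale (SE 0.10, edgeR adjusted p 0.0291). This call did not survive leaving out any 1 of controls 2, 3 and 4 or mutants 1, 3, 4, 5 and 6, with adjusted p up to 0.139 and a difference of -0.71 to -0.63. Its reads are summed over all exons, so they do not separate recombined from intact transcripts. The 6 limb mesenchyme markers summed to 482 to 638.9 CPM in controls and 531.4 to 595.5 CPM in mutants, and none was at 0. Control 5 stood apart in a measure of the library, the T-run index, which is the mean log2 CPM of 959 tested genes with a run of at least 18 T bases in a transcript. The index was 4.72 to 4.82 in controls 1 to 4, 4.45 in control 5 and 4.26 to 4.63 in mutants.

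The messages of the complex were present at very different levels. Compared per kilobase of exon in controls, Smarcb1 (BAF47, a core subunit that contacts the nucleosome) was highest, at 74.6 ± 4.50 CPM per kilobase (SD, n = 5). Smarca4 followed at 39.8 ± 1.28, then Smarce1 (BAF57, an HMG-box subunit) at 29.9 ± 1.97, Smarcd1 at 26.6 ± 1.11, Smarcc1 at 26.2 ± 2.11 and Arid1a at 21.4 ± 2.81 CPM per kilobase. Lower still were Smarcc2 at 7.08 ± 1.67, Arid1b at 5.12 ± 0.855 and Smarca2 at 3.96 ± 0.708 CPM per kilobase. Smarcd3 was lowest, at 0.462 ± 0.0319. In this order, the control ranges of Smarcd1 and Smarcc1, of Smarcc1 and Arid1a, of Smarcc2 and Arid1b, and of Arid1b and Smarca2 overlapped, and those of the other neighbours did not. Among all 15821 genes tested, Smarcb1 stood at the 93.6th percentile of control level per kilobase, Smarca4 at the 89.4th, Smarca2 at the 54.9th and Smarcd3 at the 18.1st.

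Lengths are those of all annotated exons together. For Smarcd3, 48.2% of the exon bases also lie in Chpf2 or Mir671, and reads over 2 genes were not counted. On its unshared bases alone Smarcd3 would stand at 0.892 CPM per kilobase, which leaves it last. For Smarcd1 the shared part was 11.4%, and on unshared bases it would stand at 30 CPM per kilobase, beside Smarce1. No other member shared more than 1.57%.

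None of the 10 genes differed between mutants and controls by edgeR's quasi-likelihood test, blocked by litter, at the adjusted threshold of 0.05. Over all genes tested 2.18% passed, 0.702% as higher and 1.48% as lower in mutants. DESeq2 and limma-voom also called 0 of the 10. At an unadjusted p under 0.05 there were 3, Smarcb1, Arid1a and Arid1b, all with values below 0. Of all genes tested 21.4% passed that level, 11.5% with values below 0 and 9.84% with values above 0. All members but Smarcd3 had a control mean of at least 30 CPM. Of the 5388 genes tested with such a mean, 51 were called higher and 187 lower, and 1830 had an unadjusted edgeR p under 0.05. Log2 fold changes, mutant over control, ran from -0.28 to 0.14 with a median of -0.10. Over all genes tested the median was 0.004. Values were below 0 for 7 members and above 0 for 3, while 49.3% of all genes were below 0. In a fit with the T-run index added as a term the members were 5 and 5, with a median of 0.023. That fit called 0.0126% of all genes, and the index was lower in every mutant than in controls 1 to 4, so it cannot be told apart from genotype there. In bulk tissue, fewer cells of a type and less RNA per cell cannot be told apart.

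**Figure D1:**
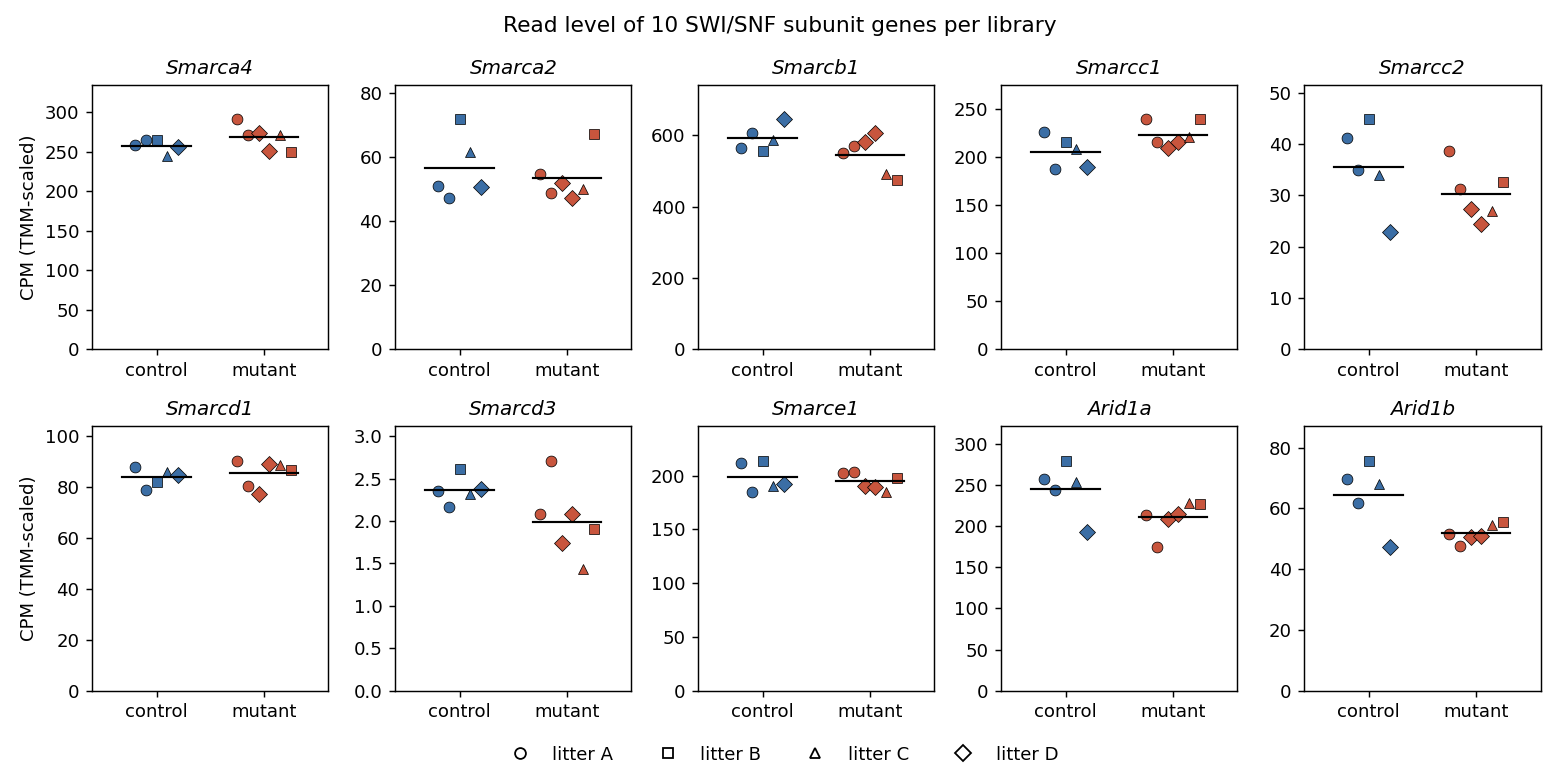
Level of each of the 10 genes in TMM-scaled CPM (vertical axis, from 0) in the 5 control and 6 mutant libraries. Points are libraries, their shape gives the litter, and bars are group means. The groups overlap for every gene, and control 5 lies within the mutant range in Arid1a and just below it in Arid1b.

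Smarca4 (chromosome 9, 21616169 to 21704230) encodes Brg1, the ATPase that Geminin binds. It stood at 259, 265.3, 264.2, 244.7 and 255.5 CPM in controls 1 to 5 and at 290.7, 270.8, 273.1, 251, 271.5 and 250.1 CPM in mutants 1 to 6. All 11 values lay close together, with mutant 1 highest and control 4 lowest, and the groups overlapped. Mutants over controls, this gave 0.06 on the log2 scale (SE 0.06, edgeR adjusted p 0.621), with a 95% interval of -0.07 to 0.19. As a ratio the interval ran from 0.951 to 1.14. The coefficient of variation over all 11 libraries was 4.99%, the lowest of the 10 members, with Smarce1 at 5.14% and Smarcd1 at 5.25% close to it. As highest over lowest library, Smarca4 was at 1.19, above Smarce1 (1.16) and Smarcd1 (1.17). The median coefficient was 19% over all genes tested and 11.7% over the 5388 genes with a control mean of at least 30 CPM. It was 9.01% over the 23 genes of other remodellers described below.

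Smarca2 (chromosome 19, 26605050 to 26778322) encodes Brm, the alternative ATPase. Its values were 51.01, 47.36, 71.75, 61.7 and 50.59 CPM in controls and 54.78, 48.89, 52.06, 47.27, 49.94 and 67.3 CPM in mutants. The highest control and the highest mutant, control 3 and mutant 6, were littermates in litter B. The genotype difference was -0.05 on the log2 scale (SE 0.08, edgeR adjusted p 0.746; 95% interval -0.22 to 0.11).

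Smarcb1 (chromosome 10, 75896769 to 75921617) was 562.8, 607.5, 556.5, 587.2 and 644.2 CPM in controls and 551.5, 568.8, 582, 605.3, 491 and 475.8 CPM in mutants. Mutants 1, 5 and 6 lay below every control, and mutants 2 to 4 lay inside the control range. The genotype difference was -0.14 on the log2 scale (SE 0.06, p 0.0353, edgeR adjusted p 0.201; 95% interval -0.28 to -0.01). Each of the 4 litters gave a value below 0, at -0.06, -0.23, -0.26 and -0.12 in litters A to D.

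Smarcc1 and Smarcc2 encode BAF155 and BAF170, paired scaffold proteins of the core. Smarcc1 (chromosome 9, 110117708 to 110240178) stood at 225.5, 187.4, 216, 207.9 and 189.6 CPM in controls and at 239, 215.4, 209.7, 215.5, 220.8 and 239 CPM in mutants. Its groups overlapped, although the 2 lowest libraries were controls and the 2 highest mutants, and the mutant mean was higher in all 4 litters. On the log2 scale the difference was 0.14 (SE 0.07, edgeR adjusted p 0.257; 95% interval -0.01 to 0.28). Smarcc2 (chromosome 10, 128459236 to 128490173) was 41.22, 35.01, 44.76, 34.04 and 22.84 CPM in controls and 38.52, 31.29, 27.34, 24.44, 26.92 and 32.58 CPM in mutants. Control 5 was the lowest of all 11, and Smarcc2 varied most of the members, with a coefficient of variation of 21.4%. Its log2 fold change was -0.16 (SE 0.11, edgeR adjusted p 0.424; 95% interval -0.39 to 0.07). It was -0.26 without control 5 (edgeR adjusted p 0.175) and -0.084 without control 3 or mutant 6 (edgeR adjusted p 0.783).

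Across all genes tested, 26% kept the same direction in all 4 litters. Among the 10 members Smarcb1 and Smarcc1 did, which is a share near that background. Of the 5388 genes with a control mean of at least 30 CPM, 1908 did.

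Smarcd1 and Smarcd3 encode BAF60A and BAF60C, interchangeable subunits that link the complex to transcription factors; BAF60C is known for its part in heart and skeletal muscle. Smarcd1 (chromosome 15, 99702287 to 99713995) was 78.77 to 87.7 CPM in controls and 77.39 to 90.35 CPM in mutants, a difference of 0.03 on the log2 scale (SE 0.07, edgeR adjusted p 0.832; 95% interval -0.12 to 0.18). Smarcd3 (chromosome 5, 24590818 to 24624411) was counted in 42, 42, 48, 40 and 34 reads in controls and 36, 41, 26, 35, 21 and 31 reads in mutants. That is 2.349, 2.162, 2.617, 2.324 and 2.382 CPM in controls and 2.082, 2.712, 1.747, 2.081, 1.435 and 1.902 CPM in mutants. Mutant 2 was the highest library of all, and the other 5 mutants lay below every control. Counting error alone was wide: the exact Poisson 95% interval was 13.0 to 32.1 reads in mutant 5 and 35.4 to 63.6 reads in control 3. The value of -0.25 on the log2 scale (SE 0.21, edgeR adjusted p 0.534) had a 95% interval of -0.72 to 0.21, so a fall to 0.608 of control and a rise to 1.16 times control were both within it.

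Of 4 contractile muscle markers, 3 passed the test as lower in mutants (Acta1, Myl1 and Actc1). The 4 summed to 33.56, 52.41, 10.63, 5.868 and 68.88 CPM in controls 1 to 5 and to 6.315 to 10.93 CPM in mutants. Control 3 thus lay within the mutant range and control 4 below it. None of the 4 was at 0 in all libraries. Smarcd3 stood at 2.382 CPM in control 5 and 2.324 CPM in control 4, and its relation to muscle content was not tested.

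Smarce1 (chromosome 11, 99209047 to 99231017) was 185.1 to 214 CPM in controls and 184.7 to 203.5 CPM in mutants. Its difference of -0.02 on the log2 scale (SE 0.06, edgeR adjusted p 0.881; 95% interval -0.15 to 0.11) was the smallest in size of the 10, and it turned to 0.018 with upper-quartile scaling, which moved the median of all genes to 0.043.

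Arid1a and Arid1b encode the large BAF250A and BAF250B subunits, of which each canonical BAF complex holds 1. Arid1a (chromosome 4, 133679008 to 133756769) was 257.3, 243.8, 279.5, 253.5 and 192.5 CPM in controls and 213.7, 174.3, 208.7, 214.7, 227.5 and 227.4 CPM in mutants. Controls 1 to 4 lay above every mutant, and control 5 lay below 5 of the 6 mutants. The fitted value was -0.19 on the log2 scale (SE 0.09, p 0.0487, edgeR adjusted p 0.232; 95% interval -0.38 to -0.0013).

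Arid1b (chromosome 17, 4994332 to 5347656) stood at 69.58, 61.73, 75.68, 68.03 and 47.37 CPM in controls and 51.42, 47.7, 50.52, 50.95, 54.66 and 55.4 CPM in mutants. Controls 1 to 4 again lay above every mutant, and control 5 was the lowest library. Its log2 fold change was -0.28 (SE 0.09, p 0.00930, edgeR adjusted p 0.109; 95% interval -0.47 to -0.08), the largest in size of the 10. By litter, the values were -0.40, -0.45, -0.32 and 0.10 in litters A to D for Arid1b and -0.38, -0.30, -0.16 and 0.14 for Arid1a.

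The call for Arid1b turned on control 5, the single control of litter D. Without it the log2 fold change was -0.39 and passed the test (edgeR adjusted p 0.0238), while 5.41% of all genes passed in that fit. Arid1a was then -0.30 (edgeR adjusted p 0.0578). Without the whole of litter D, Arid1b was -0.393 and did not pass (edgeR adjusted p 0.0516), while 0.953% of all genes passed. Without control 5, Arid1a and Arid1b were the members whose groups did not overlap, 2 of 10, against 10.4% of all genes tested; with all libraries the count was 0 of 10, against 2.59%.

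The levels of Arid1a and Arid1b moved with the T-run index. Both were highest in controls 1 to 4, where the index was highest, and lower in control 5 and the mutants, where it was lower. The longest T run in an annotated transcript was 18 bases in Arid1a and 15 in Arid1b. Smarca2, with a run of 19 bases, had a log2 fold change of -0.05, and Smarcc1, with 16 bases, one of 0.14. Over tested genes with a known run, the median log2 fold change was -0.203 at 18 or more bases and -0.032 at 12 to 17. It was 0.005 at 6 to 11 bases and 0.059 at 0 to 5. With the index as a covariate beside litter, the fitted value was 0.12 for Arid1a (edgeR adjusted p 0.603) and -0.03 for Arid1b (edgeR adjusted p 0.950). In that fit 0.0126% of all genes passed, against 2.18% without the covariate. The index was lower in every mutant than in controls 1 to 4, so the covariate fit cannot tell it apart from genotype. Arid1a is itself 1 of the 959 genes of the index, as are Smarca2 and Smarcb1. Smarcb1 has the longest run of the members, 24 bases, and its highest level was in control 5; its value with the covariate was -0.22 (edgeR adjusted p 0.351). The part of the index in these differences was not tested further.

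**Figure D2:**
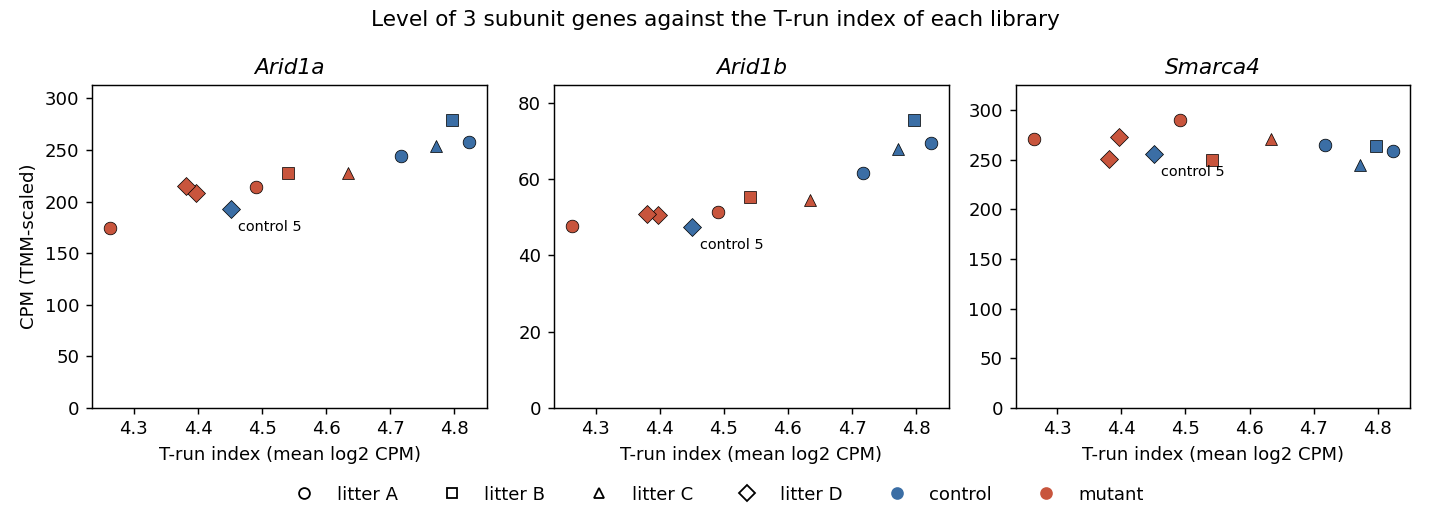
Level of Arid1a, Arid1b and Smarca4 in TMM-scaled CPM (vertical axis, from 0) against the T-run index of each library (horizontal axis, mean log2 CPM). Points are libraries, colour gives the genotype and shape the litter. Arid1a and Arid1b are higher in the 4 controls with an index of 4.72 or more, and Smarca4 stays between 244.7 and 290.7 CPM along the whole axis.

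Over the 11 libraries the log2 CPM of Arid1a and Arid1b had a Pearson correlation of 0.943 and a Spearman correlation of 0.973, the highest of the 45 pairs of members. The next was Smarcc2 with Arid1b (Pearson 0.762, Spearman 0.80), and the lowest was Smarcb1 with Smarcc1 (Pearson -0.756, Spearman -0.891). These are descriptions over libraries that share litters, scaling and the T-run index. Among 8268 other genes with a mean of at least 10 CPM, the 5 whose log2 CPM were most like Smarca4 were Ostf1 (Pearson 0.903), Cpt1c (0.885), Hmg20b (0.837), Trim45 (0.815) and Bicd2 (0.814). Their own log2 fold changes were 0.07 to 0.14. The correlation that chance gives for the highest of so many genes was not worked out.

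Whether 1 paralogue gave way to another was asked only for the 4 pairs of alternatives among the members. Ratios with subunits outside the members were not tested. Smarcd2, a further Smarcd gene named here after its values were seen, stood at 13.1 CPM per kilobase in controls, against 0.462 for Smarcd3. Its log2 fold change was 0.16 (SE 0.07, p 0.0474, edgeR adjusted p 0.230). The Smarca4 to Smarca2 ratio per kilobase was 8.115 to 12.3 in controls, with a median of 11.1, and 8.19 to 12.2 in mutants, with a median of 11.7. It was lowest in litter B in both genotypes, at 8.115 in control 3 and 8.19 in mutant 6. The Smarcc1 to Smarcc2 ratio was 3.511, 3.436, 3.097, 3.92 and 5.328 in controls and 3.981, 4.418, 4.922, 5.661, 5.264 and 4.708 in mutants. Every mutant lay above controls 1 to 4, and control 5 lay above 5 of the 6 mutants.

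Smarcd1 exceeded Smarcd3 by 50.8 to 60.6 times in controls and by 48.2 to 101 times in mutants, as levels per kilobase on all exon bases. Arid1a exceeded Arid1b by 4.05 to 4.46 times in controls and by 4.01 to 4.63 times in mutants. In both pairs mutant 2 had the lowest ratio of all 11 libraries.

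The change in log2 ratio, mutant minus control and averaged over litters, was 0.14 for Smarca4 to Smarca2, 0.32 for Smarcc1 to Smarcc2, 0.36 for Smarcd1 to Smarcd3 and 0.09 for Arid1a to Arid1b. The exact two-sided permutation p within litters was 0.111, 0.0556, 0.111 and 0.139 in that order, and 0.139 for each after adjustment over the 4 pairs. The smallest p that the 72 arrangements allow is 0.0139, and 1 ratio alone at that value would not pass after adjustment over the 4 pairs. The Smarca4 to Smarca2 difference was 0.02, 0.01, 0.45 and 0.06 in litters A to D, and without control 4 or mutant 5, the pair of litter C, its mean was 0.034. The Smarcc1 to Smarcc2 difference was 0.27, 0.60, 0.42 and -0.01 in litters A to D, and the Smarcd1 to Smarcd3 difference was -0.04, 0.52, 0.70 and 0.27. None of the 4 ratios passed the threshold, and with so few arrangements this does not show that the ratios were unchanged.

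**Figure D3:**
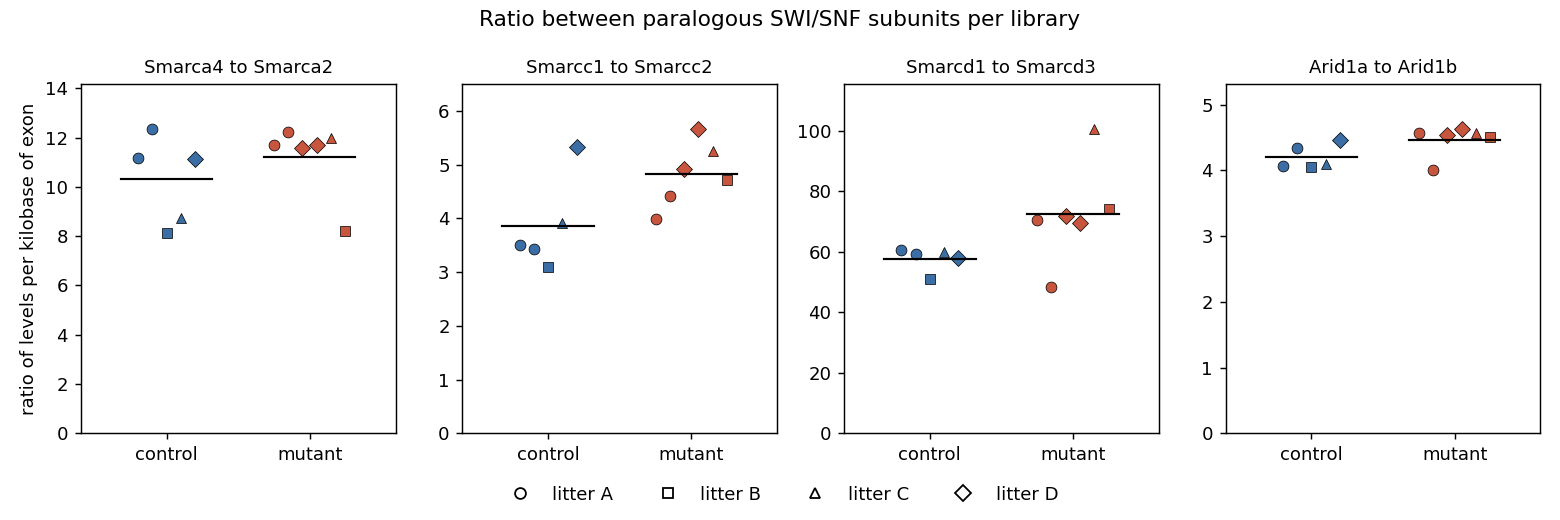
Ratio of levels per kilobase of exon between paralogous subunits (vertical axis, linear, from 0) in each control and mutant library. Points are libraries, shape gives the litter and bars are group means. The Smarcc1 to Smarcc2 ratio is at least 3.981 in all mutants, and control 5, at 5.328, lies within the mutant range.

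By edgeR's test of the 3 litter terms, no member differed between litters after adjustment, where 0.0885% of all genes tested did. Smarca2 (p 0.00428, edgeR adjusted p 0.170) and Smarcc2 (p 0.00715, edgeR adjusted p 0.210) had an unadjusted p under 0.05, which is 2 of 10 against 13.5% of all genes. Both had their highest control in litter B, control 3. The genotype by litter interaction passed for 0 of 10 members and for 0% of all genes, and at an unadjusted p under 0.05 for 0 of 10 members and 3.82% of all genes. Litters B and C hold a single control and a single mutant each, so this test had little power. Its outcome does not show that the litters were alike.

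The rest of the complex was read from a list of 18 further subunit genes of BAF, PBAF and ncBAF, the 3 forms of SWI/SNF. Of these, 17 were tested and none passed the adjusted threshold (edgeR quasi-likelihood test), while 6 had an unadjusted p under 0.05, against 2.18% and 21.4% of all genes. Among the 5388 genes with a control mean of at least 30 CPM, 1830 had such an unadjusted p. Values were below 0 for 13 and above 0 for 4, with a median of -0.12. The subunit not tested was Actl6b, the actin-like protein of neuronal complexes, with 0 to 2 reads per library; it is named after its values were seen.

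Its counterpart in dividing cells, Actl6a (BAF53A), was the most abundant of the 18 per kilobase, at a mean of 392 ± 10.8 CPM over the 5 controls and 359.8 ± 16.4 CPM over the 6 mutants (SD). Fitted over litters this was -0.13 (SE 0.06, edgeR adjusted p 0.224). Ss18, a BAF subunit known from the fusion gene of synovial sarcoma, was 218, 199.1, 256.5, 213.3 and 164.7 CPM in controls and 161.8, 137.7, 169.1, 164.7, 193.4 and 166.8 CPM in mutants. Controls 1 to 4 lay above every mutant and control 5 among the mutants, as for Arid1a, and its longest T run was 14 bases. Its value was -0.32 (SE 0.10, edgeR adjusted p 0.0882), and without control 5 it was -0.43 and passed (edgeR adjusted p 0.0281). Without the whole of litter D no gene of the list passed.

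Dpf2 (BAF45D), a PHD-finger subunit that reads histone marks, was the gene of the 17 with no overlap between groups, which 2.59% of all genes tested also showed. It stood at 234.6, 259.1, 252.8, 221 and 220 CPM in controls and at 211.1, 197, 190.6, 198, 200.1 and 182.8 CPM in mutants. Every mutant lay below every control, including control 5. The log2 value was -0.26 (SE 0.07, edgeR adjusted p 0.0561; 95% interval -0.41 to -0.12). The values by litter were -0.27, -0.47, -0.14 and -0.18. The longest T run in its transcripts was 7 bases. Dpf2 and Ss18 both passed with DESeq2 (adjusted p 0.00968 and 0.0213) and without the filter on low counts (edgeR adjusted p 0.02 and 0.00276), settings that called 7.55% and 5.35% of all genes.

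**Figure D4:**
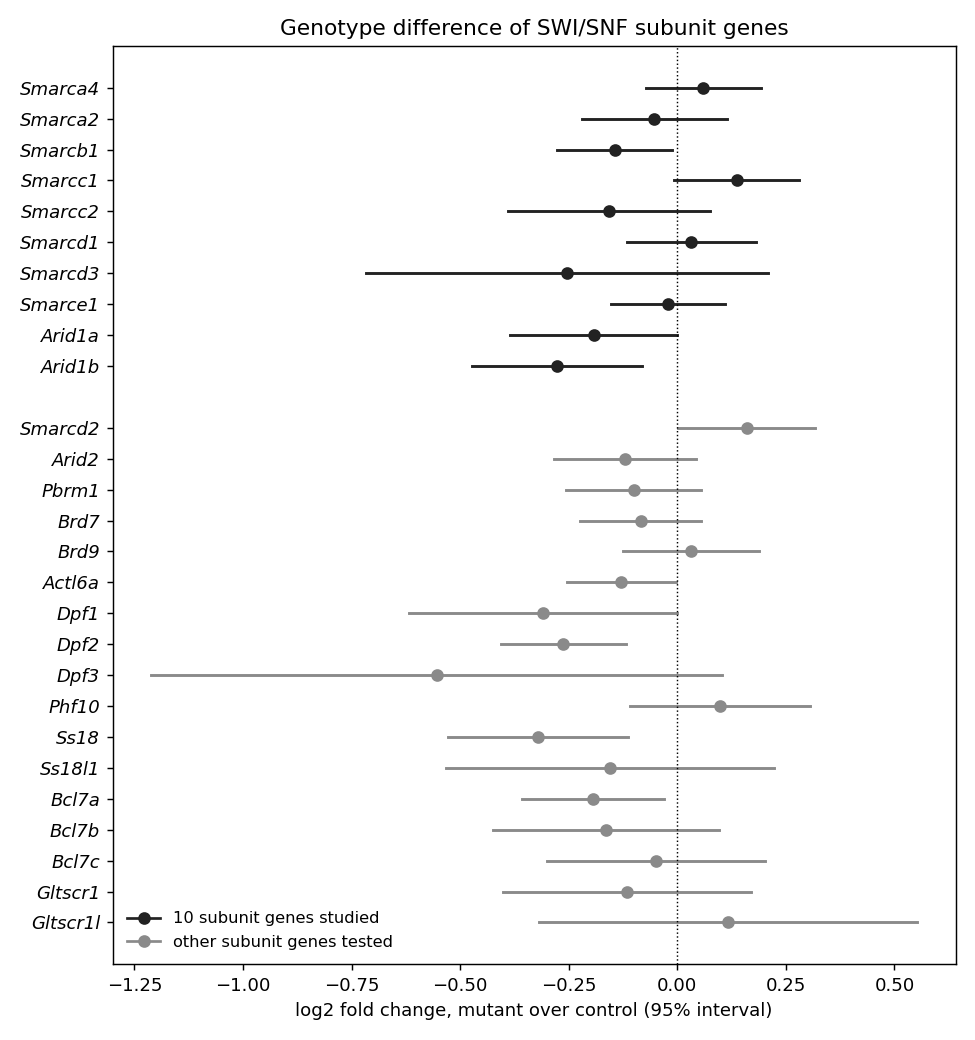
Log2 fold change of mutant over control (horizontal axis) with its 95% interval for the 10 subunit genes studied (black) and 17 other subunit genes (grey). Intervals come from the edgeR fit and are not adjusted for the number of genes. Among those with intervals wholly below 0 are Arid1b (-0.28), Ss18 (-0.32) and Dpf2 (-0.26), and Smarca4 lies at 0.06.

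For comparison, 23 genes of other ATP-dependent remodellers (the ISWI, CHD and INO80 families and related ATPases) were read from the same fit. Over all genes 2.18% passed (edgeR quasi-likelihood test) and 21.4% had an unadjusted p under 0.05. The latter held for 1830 of the 5388 genes with a control mean of at least 30 CPM. Of the 23, none passed and 1 had an unadjusted p under 0.05. That gene was Baz1a, an ISWI partner named after its values were seen, at 0.32 (SE 0.08, edgeR adjusted p 0.0546). Values were above 0 for 13 and below 0 for 10, with a median of 0.03. The 3 most abundant per kilobase were the helicase-like Ruvbl2 (0.02, SE 0.07) and Ruvbl1 (0.05, SE 0.06), and the NuRD ATPase Chd4 (0.06, SE 0.06). Whether the SWI/SNF genes differ from these as a group was not tested.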

How the data were processed

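RNA was measured in forelimb buds of 11 embryos (5 control, 6 mutant). Total RNA was depleted of ribosomal RNA before sequencing, per the labels. The authors deposited unnormalized counts for each gene name, obtained with featureCounts 1.4.6-p4 on mm10 and GENCODE M9 with a mapping quality of at least 10, per the file headers; the submitters' processing notes also name STAR 2.5.4b. The header command sets no strand option, so reads were counted without regard to strand. The header lists 12 alignment files; 11 columns were used here.

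Genes were kept by filterByExpr (15821 genes, 99.9% of counts), scaled by TMM, and tested with edgeR 4.0.16 (quasi-likelihood F test, two-sided, litter as a block, Benjamini-Hochberg adjustment over all genes, threshold 0.05) in R 4.3.3. Intervals at 95% use the test's standard error and its t quantile. Log2 CPM used a prior count of 2. Levels per kilobase divide CPM by the exon length in the file. Ratios were tested by exact permutation within litters. The code was tested on simulated data. T runs and shared exon bases come from GENCODE M21 (GRCm38), promoters from RefSeq.

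Litters come from the titles. Deviations from group means correlated by -0.16 to 0.37 (median 0.13) over 8 same-litter pairs across genotypes and by -0.33 to 0.17 (median -0.02) over 22 others. No 2 libraries of a group agreed within sampling noise (over 25 pairs, chi-square divided by its degrees of freedom was at least 6.82). The members, lists and tests were chosen with earlier results of these data known. Named genes are Gmnn, the members, list genes that passed or otherwise the 3 highest per kilobase, and the 5 genes most like Smarca4. Alternatives were other scalings (RLE, upper quartile), DESeq2 1.42.0, limma-voom (limma 3.58.1), filters (none, or at least 5 libraries with 1 CPM), no block, tables without ribosomal RNA, haemoglobin and mitochondrial genes, the T-run index as a covariate, a prior count of 0.5 for the ratios, and each library or litter left out.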

Additional observations from a re-analysis of the deposited data

Results flagged for a closer look

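Within each genotype, the highest and the lowest library were compared with the spread of the rest for Gmnn, the 10 members and the 17 other subunits tested, 112 comparisons in all. A library stood too far from the others in 2 of them, where chance gives about 2.8. Arid1a was lowest in mutant 2, at 7.446 log2 CPM (174.3 CPM), against 208.7 to 227.5 CPM in the remaining mutants. The same library had the lowest T-run index (4.26) and the largest share of haemoglobin counts (5.44%); their part in the value was not tested. Bcl7b, a small BAF subunit named here for its values, was lowest in control 2, at 4.365 log2 CPM or 20.49 CPM, where the other controls had 24.83 to 26.61 CPM.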

How the results depend on the processing

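No member was called under any alternative with all libraries in the fit, and the left-out fits gave 0 to 1 (Arid1b without control 5). For the other subunits the count was 2 with no filter on low counts and with DESeq2, 1 (Dpf2) with the filter of 1 CPM in at least 5 libraries, and 0 to 1 in the left-out fits. The number of genes called, 345 here, was 1566 with no filter, 550 with the 1 CPM filter, 1194 with DESeq2, 16 without the litter block, where the filter kept 14566 genes in place of 15821, 13 without the block on the same 15821 genes (an alternative chosen after seeing the data), 2 with the T-run index covariate, and 1 to 850 in the left-out fits, the highest without control 5. Besides that count, Gmnn was the result reported that changed its call without the replicate block (-0.637, edgeR adjusted p 0.0501, and -0.64, adjusted p 0.0549, on the same genes). Gmnn ran from -0.754 to -0.573 in the left-out fits, of which 11 of 15 did not pass. The sign turned for Smarcc2 (0.065) and Arid1a (0.118) with the T-run index covariate and for Smarce1 (0.018) with upper-quartile scaling. Some members moved by over 1.5 times with 1 library or litter left out, without crossing 0. Their ranges were -0.467 to -0.157 for Smarcd3, -0.297 to -0.085 for Arid1a and -0.261 to -0.084 for Smarcc2. For Smarca4 the range was 0.035 to 0.094, and for Smarcd1 0.01 to 0.056. The left-out ranges that crossed 0 were -0.131 to 0.008 for Smarca2 and -0.056 to 0.002 for Smarce1. Litter differences passed for 2 members (Smarca2 and Smarcc2) with no filter, an alternative chosen after seeing the data. The causes of these changes were not tested. The 4 paralogue ratios kept their sign in all alternatives run. None passed, but 3 of the 15 left-out fits (control 5, litter A, litter D) could not: their smallest possible p was 0.0833. In the other left-out fits, 1 ratio alone at its smallest p would not pass after adjustment over the 4. Depth limits Smarcd3 most, with 21 to 48 reads per library. The genotype by litter interaction was not refitted with libraries left out.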
